A study of Mus musculus with 60 samples.

Results

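The homeobox and T-box genes outside the Hox clusters encode transcription factors that lay out the embryo and specify cell types. They were described here in adult mouse dorsal root ganglia, the clusters of sensory neurons and glia beside the spinal cord, after nerve or spinal injury. Members were the protein-coding genes of the RefSeq table for GRCm38.p6 whose symbol is Lhx, Dlx, Nkx, Pax, Irx, Pitx, Otx, Gbx, Emx, Barx or Tbx followed by a number, and by the same rule the genes of the sine oculis homeobox family, such as Six2 and Six4. This gave 73 genes of 21883, made up of 14 Nkx, 13 Tbx, 9 Pax, 8 Lhx, 6 Irx, 6 Dlx and 3 Pitx genes, 2 each of Otx, Gbx, Emx and Barx, and 6 of the sine oculis family. The choice used names and no measured value.

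Samples were L4 to L6 ganglia of C57BL/6 mice aged 6 to 8 weeks, collected 24 hours after surgery. All 4 groups were operated: the sciatic nerve was cut (SNA, axotomy) or only exposed in a mock operation (Sham), and the dorsal columns of the spinal cord were cut (DCA) or only the overlying bone was removed (Lam, laminectomy). Chromatin immunoprecipitation was sequenced for H3K9ac and H3K27ac, marks of active promoters and enhancers, and for H3K27me3, the mark of Polycomb repression, and ATAC-seq mapped DNA open to a transposase. A ChIP sample pooled 10 mice and an ATAC sample came from 1, with 2 ChIP or 3 ATAC samples behind a condition. The deposited data are 16 peak lists, 1 for each assay and surgery, in which all replicates of a condition are pooled, so no value here has a replicate error and no test between surgeries could be made. Lam against Sham, with no axotomy on either side, gives the background of each comparison. In whole ganglia, fewer cells of a type and less of a mark per cell cannot be told apart. Where 4 values follow each other without names, they stand in the order Sham, SNA, Lam, DCA.

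Polycomb repressive complex 2 places H3K27me3, and developmental transcription factor genes are its best-known targets in differentiated cells. At such genes the mark tends to lie in broad domains over CpG-rich starts rather than in sharp peaks, while cells that use a given gene tend to carry acetylation there. Neurons and glia of the ganglion arise from the neural crest, in which Pax3 acts.

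The promoters of 4 members are shown because they stand at the extremes of what follows. Tbx6 and Six4 had an acetylation peak within 1 kb of a listed start in most lists, 8 and 7 of the 8 acetylation lists. Nkx2-1 and Otx2 had no acetylation peak in or near the gene in any list, and H3K27me3 at the start in all 4. Each line gives the 250 bases before the first start that RefSeq lists on GRCm38.p6, 5′ to 3′, with CpG dinucleotides in capitals. The positions are chr7:126781233-126781482 on the plus strand for Tbx6, chr12:73113246-73113495 on the minus strand for Six4, chr12:56536909-56537158 on the minus strand for Nkx2-1 and chr14:48667645-48667894 on the minus strand for Otx2.
Tbx6: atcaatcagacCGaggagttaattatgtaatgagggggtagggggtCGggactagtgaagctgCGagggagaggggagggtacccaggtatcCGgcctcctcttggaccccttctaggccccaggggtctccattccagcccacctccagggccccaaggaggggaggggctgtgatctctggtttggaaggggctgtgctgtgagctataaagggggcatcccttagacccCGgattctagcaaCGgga
Six4: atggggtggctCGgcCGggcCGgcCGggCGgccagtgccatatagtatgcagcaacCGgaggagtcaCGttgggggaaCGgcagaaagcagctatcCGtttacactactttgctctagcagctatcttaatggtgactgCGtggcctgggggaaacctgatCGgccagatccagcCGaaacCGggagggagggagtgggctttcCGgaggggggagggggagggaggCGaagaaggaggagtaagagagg
Nkx2-1: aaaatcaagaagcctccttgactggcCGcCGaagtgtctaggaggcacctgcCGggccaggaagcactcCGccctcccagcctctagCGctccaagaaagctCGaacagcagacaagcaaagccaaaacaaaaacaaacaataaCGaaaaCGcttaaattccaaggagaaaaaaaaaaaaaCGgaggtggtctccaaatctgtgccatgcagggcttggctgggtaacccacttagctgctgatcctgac
Otx2: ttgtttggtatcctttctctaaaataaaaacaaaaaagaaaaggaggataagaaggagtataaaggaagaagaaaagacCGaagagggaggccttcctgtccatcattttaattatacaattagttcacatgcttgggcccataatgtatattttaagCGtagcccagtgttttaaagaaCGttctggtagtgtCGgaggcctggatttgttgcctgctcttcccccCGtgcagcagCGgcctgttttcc
These stretches held 6, 15, 9 and 6 CpG dinucleotides in the order printed, so CpG number did not separate the acetylated pair from the other. Over the 50 members with a listed promoter of 300 bases, the median was 17.5 CpG dinucleotides and 62.2% G and C. Over the 17491 protein-coding genes with a listed promoter, the medians were 13 and 56.3%. The ratio of observed to expected CpG had a median of 0.706 in the members and 0.576 in all genes. Among the 50 members it was 0.547 in the 8 with an acetylation peak within 1 kb of a gene end in some list. In the 42 without it was 0.737, and this difference was not tested. Barx1, a homeobox gene of stomach and jaw, was richest with 50 CpG dinucleotides, and Tbx22, a palate gene on chromosome X, was poorest with 1. The letters TATAAA, searched on both strands, stood in 4 member promoters (8%) and in 13.3% of all promoters of that length. TAATTA, a core of many homeodomain binding sites and its own reverse complement, stood in 4 (8%) and in 4.67%.

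Peaks were assigned to a gene when they touched its body or the 10 kb on either side, called its window here, and to a gene end when they came within 1 kb of the lower or upper end of the gene. The merged windows of the 73 genes covered 3.01 Mb. The median member window was 29.6 kb long against 37.2 kb over all genes. Strand was known only for the 50 members with a listed promoter, so both ends were used unless a start is named, and exons, introns and untranslated regions were not assigned.

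H3K27me3 was found at nearly all of these genes. A peak of this mark lay at an end of 64, 65, 70 and 51 members, which is 87.7%, 89.0%, 95.9% and 69.9% of the 73, against 28.6%, 23.0%, 33.4% and 12.3% of all protein-coding genes. In all 4 lists together, 48 members (65.8%) had such a peak, against 5.30% of all genes. In at least 1 list it was 70 members, all but Six5, Tbx6 and Tbx22, against 49.1%. Anywhere in the window, 63 members had a peak in all 4 lists, against 38.5%. At a listed start the count was 39, 45, 47 and 27 of 50 members, against 19.6%, 14.8%, 22.1% and 7.13% of the genes with a listed start, and 22 in all 4 lists against 2.68%.

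**Figure D1:**
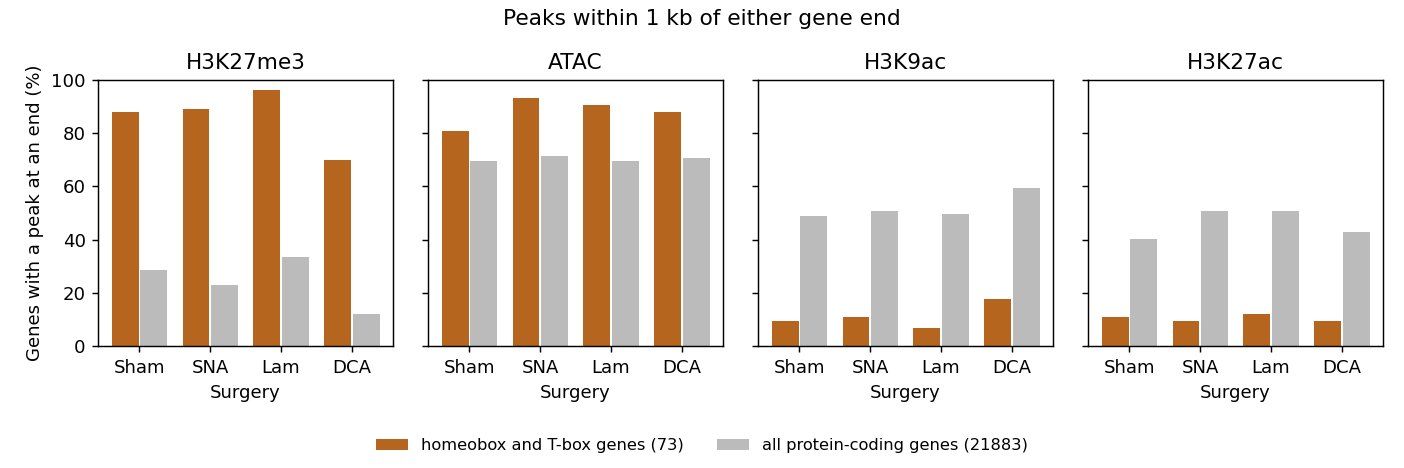
Percent of genes with a peak within 1 kb of either gene end (y axis) by surgery (x axis), 1 panel per assay, for the 73 homeobox and T-box genes (brown bars) and all 21883 protein-coding genes (grey bars). The brown bars stand above the grey ones for H3K27me3 (69.9% to 95.9%) and ATAC (80.8% to 93.2%), and below them for both acetylation marks (6.85% to 17.8% for H3K9ac).

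The mark covered most of the window of the median member in Sham, SNA and Lam, and less in DCA. The median member had 73.7%, 69.1%, 78.4% and 31.2% of its window inside H3K27me3 peaks, where the medians over all genes were 3.09%, 2.00%, 3.79% and 0. At least 50% of the window was covered in 53, 51, 54 and 16 members, against 2.40%, 1.64%, 3.03% and 0.507% of all genes. At least 90% was covered in 19, 9, 16 and 0 members, against 0.489%, 0.247%, 0.366% and 0.00914%. A single peak of at least 10 kb touched 53, 47, 56 and 14 member windows, against 3.72%, 1.66%, 2.59% and 0.430% of all genes. Of the 1000 widest peaks of each list, 69, 81, 74 and 63 lay in member windows, although these windows held only 0.205%, 0.280%, 0.234% and 0.510% of each list by number.

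The longest member peak of each list was at Pax2 in Sham, Nkx2-3 in SNA, Pax6 in Lam and Lhx9 in DCA (20295 bp). A peak of 59425 bp lay over the listed promoter of Pax2, a kidney and optic stalk gene, in Sham (chr19:44708890-44768314). It was number 7 by width of 122953 peaks in that list and 1 of 6 in the Pax2 window, which extends beyond it. Nkx2-3, a gut and spleen gene, had the longest in SNA, 63743 bp at chr19:43565330-43629072, and its window was covered to 100%, 100%, 98.8% and 49.7%. Pax6, the eye and pancreas gene, had longest peaks of 46270, 32172, 46257 and 12708 bp. Dlx6, a limb and jaw gene beside Dlx5, was covered to 100%, 100%, 100% and 78.1%, the highest DCA value among the members.

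Families differed in cover. In Sham the family median was 96.3% in Pitx, 92.8% in Irx, 92.5% in Otx, 89.9% in Emx and 78.9% in Nkx. It was 76.2% in Pax, 75.5% in Lhx, 72.8% in Barx, 61.9% in Dlx and 56.8% in Gbx. The lowest family medians were 46.9% in the sine oculis family and 32.9% in the T-box family, and in DCA they ran from 4.38% in Tbx to 51.8% in Emx. All 8 Lhx genes, which specify neurons with LIM domains and a homeodomain, had an end peak in Sham, SNA and Lam, and 6 of them did in DCA.

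**Figure D2:**
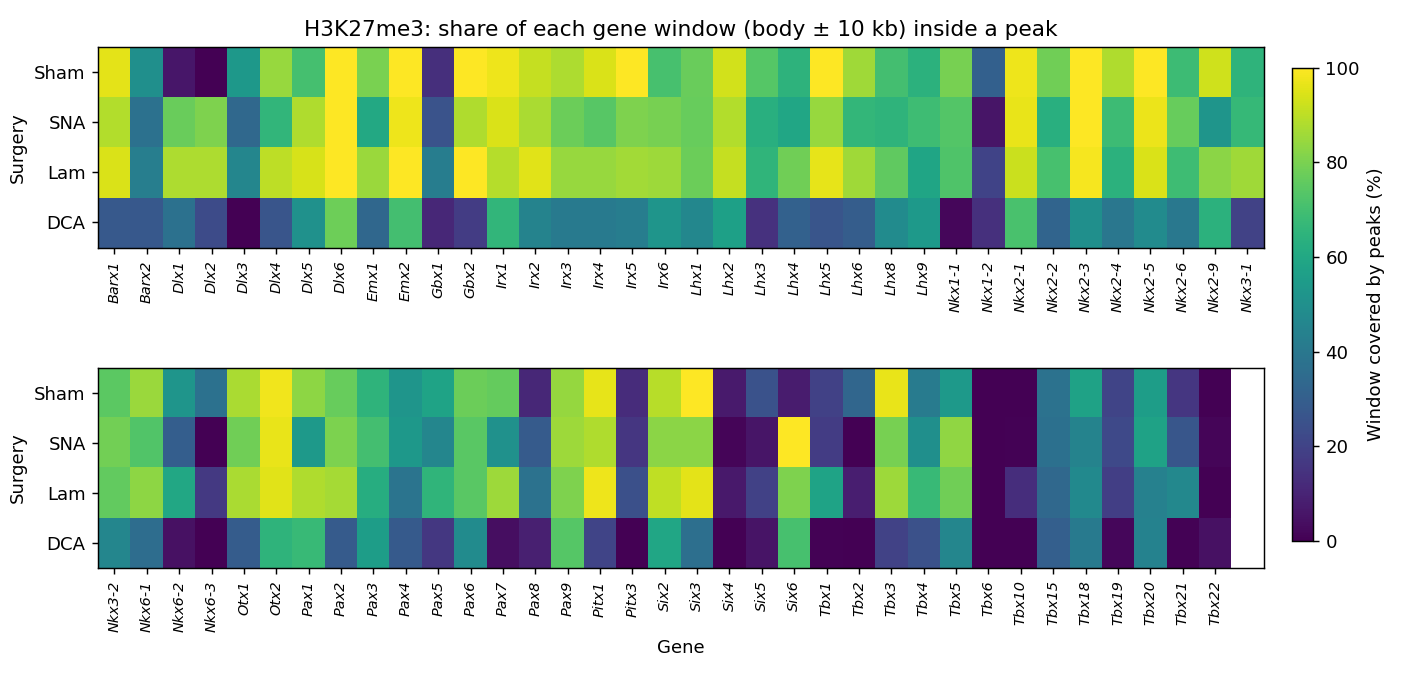
Share of each gene's window (body and 10 kb on either side) inside H3K27me3 peaks, as colour from 0 (dark) to 100% (yellow), for 71 of the 73 genes (columns, in order of symbol, over both panels) in the 4 surgeries (rows). DCA has the lower value than Lam in nearly all columns, Tbx6 is at 0 throughout, and Dlx1, Dlx2 and Six6 are dark in Sham and bright in SNA and Lam.

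In Sham, SNA and Lam, H3K27me3 cover was highest in and near the genes. Positions at the gene ends themselves lay inside an H3K27me3 peak in 70.5%, 58.9%, 76.0% and 17.1% of cases. At 20 kb outside the ends the shares were 28.1%, 34.9%, 35.6% and 24.7%, and at 100 kb 21.2%, 19.2%, 23.3% and 8.90%. Around all genes the shares were 10.0%, 6.09%, 10.5% and 2.40% at the ends and 8.61%, 7.64%, 9.90% and 3.78% at 100 kb. In DCA the member share was 32.9% at 1 kb and 34.9% at 5 kb, above that at the ends themselves. Members in SNA and Lam were above their end value at 1 kb (65.8% and 79.5%) but not at 5 kb (54.8% and 63.7%). In Sham the member share was below the end value at both distances (67.1% and 55.5%). Over all genes the share was above the end value at both distances in DCA (3.18% at 1 kb and 3.97% at 5 kb) and SNA (7.11% and 7.89%), but not in Sham or Lam.

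**Figure D3:**
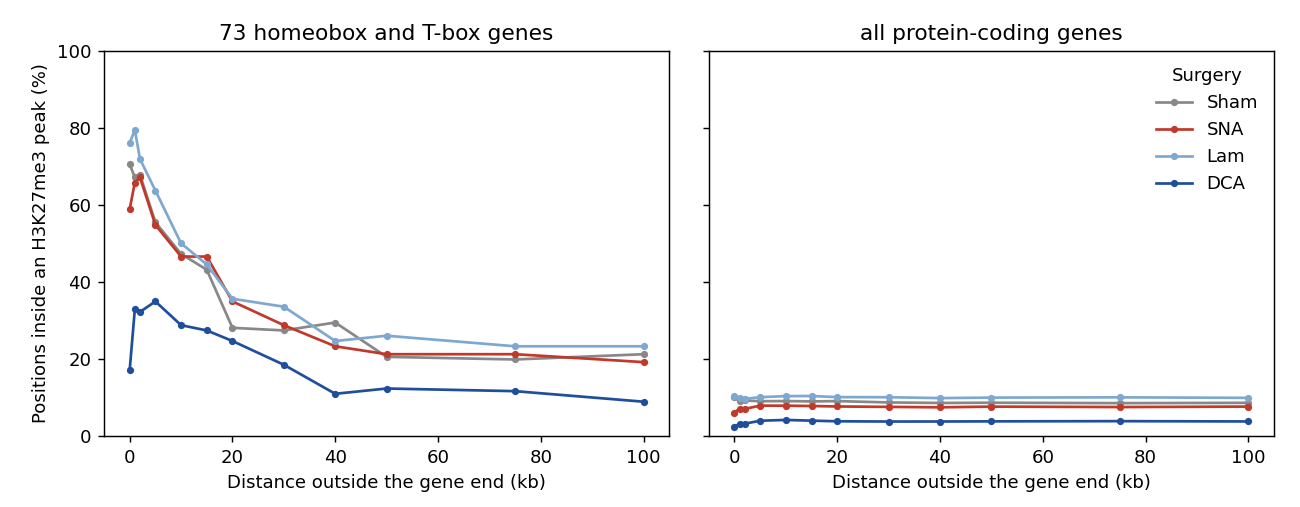
Percent of positions inside an H3K27me3 peak (y axis) at distances from 0 to 100 kb outside the gene ends (x axis), for the 73 genes (left) and all protein-coding genes (right), 1 line per surgery. In the left panel Sham, SNA and Lam start at 58.9% to 76.0% and come down to 19.2% to 23.3% at 100 kb, while DCA starts at 17.1%, and in the right panel all lines lie at 10.5% or below at the ends and at 100 kb.

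These peaks were wide and weak. The authors' fold enrichment had a median of 1.06, 1.11, 1.16 and 1.15 over the member peaks, below the medians of the whole lists, 1.11, 1.15, 1.19 and 1.18. A q of at most 0.05 was reached by 2 of 252 member peaks in Sham and by none of 396, 361 and 459 in the SNA, Lam and DCA lists, and by 1613, 218, 916 and 43 peaks of the whole lists. The highest fold in Sham was 2.03 at Nkx6-3, a stomach gene, followed by 1.94 at Lhx1, a kidney and motor neuron gene, 1.73 at Otx1 and 1.60 at Nkx3-2. The next were 1.51 at Six4, 1.44 at Pax4, 1.41 at Pax5, 1.38 at Six5, 1.36 at Pax7 and 1.35 at Nkx2-3. Peak names run to higher numbers than the lists have lines (to 241936 for 122953 peaks in Sham), so an absent peak may have been removed, by a rule not given in the sources used here.

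A few loci were lowest in the Sham list. Dlx2, a forebrain gene, was covered to 0%, 80.7%, 87.6% and 22.9%, and its neighbour Dlx1 to 6.05%, 77.3%, 87.6% and 37.4%. Six6, an eye gene, was covered to 7.42%, 100%, 80.6% and 70.9%. Dlx1 and Six6 also lacked an ATAC peak at an end in Sham and had one in each of the other lists, whereas Dlx2 had one in all 4. Within 1 kb of the listed start, however, Dlx1 had an ATAC peak in all 4 lists, and only Six6 lacked one in Sham. Sham was thus the low list for these genes in H3K27me3, and Lam, which also had no axotomy, was not.

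H3K27me3 differed most between DCA and its control. The whole list was also smaller, with 154055 peaks over 194 Mb in Lam and 90011 over 91.4 Mb in DCA. Against Lam, 70 of 73 members had a smaller covered share in DCA and 2 a larger one (67.2% and 12.3% of all genes). The median difference was -33.2 percentage points in members and -2.05 over all genes, whose median cover in Lam was only 3.79%. Of the merged member windows, 66.2% was covered in Lam and 31.4% in DCA. At the same time 47 members had more peaks in DCA and 22 fewer (10.3% and 61.5%). More peaks together with a smaller covered share were found in 46 members, against 3% of all genes. By number, members made up 0.510% of the DCA list and 0.234% of the Lam list, a log2 ratio of 1.12 (95% counting interval 0.923 to 1.32). By length they made up 1.03% of each, a log2 ratio of 0.0113. Median member peak width was 2306 bp in Lam and 1327 bp in DCA, and in the whole lists 853 and 762 bp.

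Nkx2-3, whose cover is given above, had a single peak in 3 lists and several in DCA. Its window held 1, 1, 1 and 5 peaks, the longest of 47898, 63743, 33571 and 6230 bp. Dlx6 held 1, 1, 1 and 5 peaks, the longest of 47224, 41864, 41934 and 14221 bp. Pax2 had 9 peaks in Lam and 21 in DCA, with 86.7% and 28.7% of its window covered. Pax7, a gene of dorsal neural tube and muscle stem cells, was covered to 85.4% in Lam and 3.79% in DCA. Pax5, a B cell gene, had 26, 34, 34 and 18 peaks and was covered to 57.9%, 45.8%, 65.4% and 16%, fewer and less in DCA. Pax3 was close in the 2 lists, at 62.3% in Lam and 55.5% in DCA over 23 and 26 peaks.

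**Figure D4:**
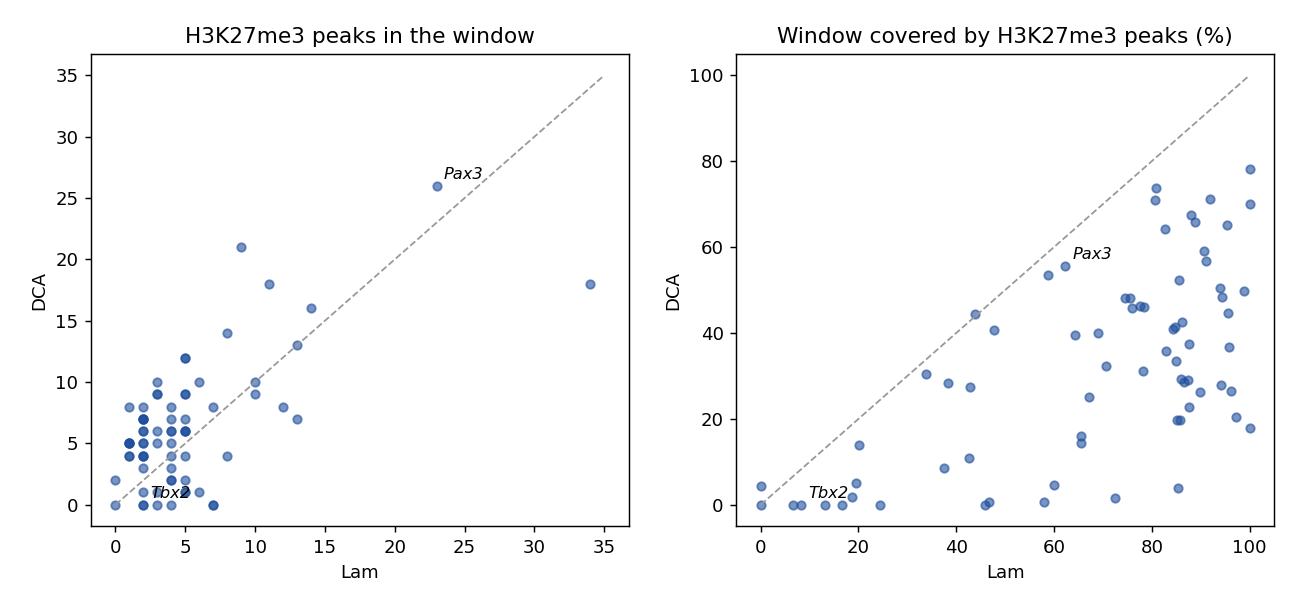
Each point is 1 of 71 of the 73 genes, with its value in Lam on the x axis and in DCA on the y axis, for the number of H3K27me3 peaks in the window (left) and the percent of the window they cover (right), and the dashed line marks equal values. On the left most genes lie above the line, on the right nearly all lie below it, and Pax3 lies close to it in both.

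An end peak was present in Lam and absent in DCA in 19 members, and the reverse held for 0 (24.6% and 3.48% of all genes). As a share of the genes with an end peak in Lam, those without one in DCA were 27.1% of members and 73.6% of all genes. The 19 include Six4, Tbx2, Tbx3 and Tbx10, which were acetylated at an end in DCA, and Dlx3, Irx3, Irx5, Lhx5 and Pitx1, which were not.

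Between SNA and Sham the member values were closer. A smaller covered share in SNA was found in 47 members and a larger one in 23 (47.4% and 31.8% of all genes), with a median difference of -3.78 points. More peaks were found in 54 and fewer in 9 (32.5% and 33.8%). An end peak was present in Sham only in 4 members, Nkx6-3, Pitx3, Six4 and Tbx2 (14.6% of all genes), and in SNA only in 5, Dlx1, Dlx2, Pax8, Six6 and Tbx1 (9%). Pax3 had 10, 20, 23 and 26 peaks and was covered to 65.0%, 70.1%, 62.3% and 55.5%, so its Sham peak number was the lowest of the 4 while its Sham cover was not.

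Lam against Sham, which shares the Sham list with that comparison, had 6 members with an end peak only in Lam, those 5 and Tbx10, and 0 with one only in Sham (14.7% and 9.89% of all genes). More peaks in Lam were found in 44 members and fewer in 13 (48.3% and 21.3%). The covered share was larger in Lam in 31 and smaller in 36 (46.7% and 36.2%). The log2 ratio of the member share by number was 0.448 (interval 0.22 to 0.676) for SNA over Sham and 0.193 (-0.0386 to 0.425) for Lam over Sham. The value for Lam lay above 0 over its whole interval with lists of equal size (0.362, 0.0683 to 0.655) and with 50 kb on either side (0.288, 0.153 to 0.422). Its interval included 0 with the gene body alone (0.0646, -0.22 to 0.349), by peak midpoint (0.223, -0.0148 to 0.46) and with peaks near other genes left out (0.194, -0.0465 to 0.435). A higher share than in Sham was thus found without an axotomy under some settings only. By length, SNA over Sham was -0.0376 and Lam over Sham -0.0282. The largest excess of Sham over Lam in peak number was at Tbx15, a skeletal gene, with 11 and 8 peaks.

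Acetylation was rare at these genes. H3K9ac lay at an end of 7, 8, 5 and 13 members, against 49.0%, 50.6%, 49.7% and 59.3% of all genes, and H3K27ac at an end of 8, 7, 9 and 7, against 40.3%, 50.9%, 50.9% and 42.7%. In all 4 lists of the mark, H3K9ac was at an end of 5 members (41.9% of all genes) and H3K27ac of 4 (32.1%). In at least 1 list it was 13 (61.3%) and 12 (57.0%). In the window, 11 members had H3K9ac and 7 had H3K27ac in all 4 lists (58.6% and 52.0%). No acetylation peak was at an end in any of the 8 lists in 58 members (37.0% of all genes), and none was in the whole window in 35 (25.9%). Of those 35, 29 had an H3K27me3 peak and 24 an ATAC peak at an end in all 4 lists. At a listed start, acetylation was found in at least 1 list in 5 of 50 members, Nkx1-2, Pitx3, Six4, Six5 and Tbx6, against 62.9% of genes, and in all 8 lists in Tbx6 alone, against 30.0%.

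The acetylation peaks that were there lay in the windows of few genes. Over the 8 lists 414 peaks were counted in member windows, of which Tbx2 held 118 (28.5%) and the 6 genes with most, among them Tbx10, Tbx6, Six5 and Six4, together 290 (70.0%). Of these peaks, 104 of 118 at Tbx2 were more than 1 kb from the ends of other genes. At Tbx10 it was 13 of 43, at Tbx6 4 of 40, at Six5 20 of 35 and at Six4 11 of 24. A peak at an end in all 8 lists was found in 4 members, among them Tbx2, Tbx6 and Tbx10 (28.6% of all genes), and Six5 had H3K9ac at an end in all 4 lists of that mark as well.

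**Figure D5:**
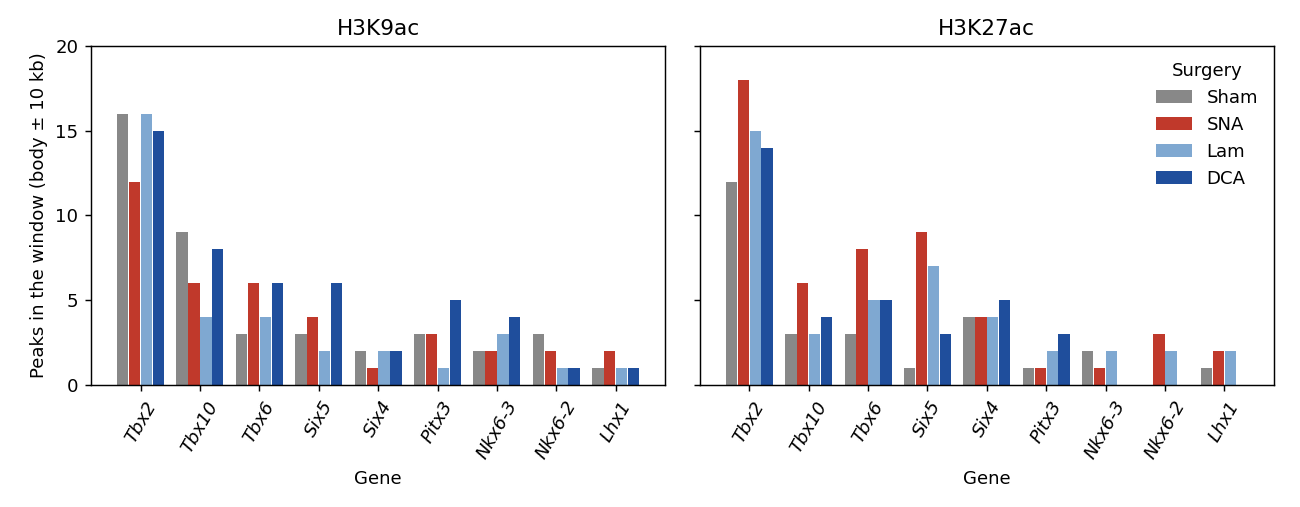
Number of H3K9ac (left) and H3K27ac (right) peaks (y axis) in the window, body and 10 kb on either side, of 9 homeobox and T-box genes among the 10 with most acetylation peaks (x axis), 1 bar per surgery. Tbx2 has 12 to 18 peaks in every list, and no other gene has more than 9.

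Tbx2, a T-box repressor, had most of them. Its window held 16, 12, 16 and 15 H3K9ac peaks and 12, 18, 15 and 14 H3K27ac peaks. They covered 33.1%, 37.4%, 27% and 59.0% of the window for H3K9ac and 28.5%, 48.4%, 56.3% and 29.5% for H3K27ac. All 27 peaks at its ends were more than 1 kb from the ends of other protein-coding genes. The strongest H3K27ac end peaks by p lay at the upper end of the gene (chr11:85832615-85841948) in Sham, Lam and DCA, with folds of 14.7, 17.3 and 12.6, above 99.2%, 99.8% and 98.6% of their lists by p. In SNA the strongest end peak lay at the lower end, with a fold of 7.44. The upper-end peaks of Sham and DCA start at chr11:85842875 and chr11:85842933, just inside the 1 kb limit. A peak in SNA slightly further out would not be counted as an end peak, so a move between ends cannot be read from this. H3K27me3 covered 32.9%, 0%, 8.22% and 0% of the window. The SNA and DCA lists hold no H3K27me3 peak there, and over all genes 51.2% of the end peaks of Sham were missing in SNA and 73.6% of those of Lam in DCA.

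Other acetylated members share their ends with neighbours. All 4 acetylation peaks at the ends of Six4 and 8 of 9 at those of Tbx6, a mesoderm gene, were also within 1 kb of an end of another gene, Mnat1 for Six4 and Ypel3 for Tbx6. For Tbx10, 3 of 14 end peaks lay away from other genes, the neighbour being Nudt8, and none lay at the listed start of Tbx10. Six5, which lies near Dmpk and Bhmg1, had 12 end peaks, 5 of them away from other genes, and for Pitx3, near Elovl3, it was 4 of 8. Lhx1 had 10 acetylation peaks in its window, none of them at its ends and all within 1 kb of an end of another gene. Which gene such a peak belongs to was not tested. Of the 73 members, 11 have an end within 2 kb of an end of another protein-coding gene.

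Tbx21, Tbx3 and Tbx4 had acetylated ends away from other genes. Tbx21, the T-bet gene of lymphocytes, had H3K9ac at its lower end in Sham, SNA and DCA, away from its listed start at the upper end. Tbx3, the close relative of Tbx2, had 1 end peak each in H3K27ac of SNA and Lam and H3K9ac of DCA, with 96.7%, 79.4%, 85.2% and 19.7% of its window under H3K27me3. Tbx4, a hindlimb gene next to Tbx2, had end peaks in 4 lists, none at its listed start.

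H3K9ac peaks in member windows numbered 50, 49, 41 and 69, most in DCA, whose whole list is also the largest. The member share of the list gave a log2 ratio of -0.598 (interval -1.17 to -0.0297) for SNA over Sham, where the whole lists hold 74652 and 50332 peaks. That interval reached past 0 with lists of equal size (-0.599, -1.23 to 0.0345), a q of at most 0.05 (-0.475, -1.2 to 0.255), the gene body alone (-0.408, -1.35 to 0.536), 50 kb on either side (-0.146, -0.457 to 0.165) and peaks near other genes left out (-0.686, -1.38 to 0.00995). Lam over Sham gave -0.296 (-0.891 to 0.3) and DCA over Lam -0.0722 (-0.63 to 0.485). An end peak only in SNA was found in 1 member, Tbx4, and only in Sham in 0 (5.44% and 3.86% of all genes), and Lam against Sham had 0 and 2 (5.36% and 4.70%). The peak number of Tbx6 was 3 in Sham and 6 in SNA, and that of Tbx10 9 and 6. Nkx6-2, a neural tube gene, had 3, 2, 1 and 1.

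More H3K9ac peaks in DCA than in Lam were counted in 18 members and fewer in 2 (47.6% and 8.63% of all genes), and a larger covered share in 23 and a smaller one in 0 (67.8% and 2.54%). An end peak only in DCA was found in 8 members, Gbx1, Nkx1-2, Nkx6-3, Pitx3, Six4, Tbx21, Tbx3 and Tbx4, and only in Lam in 0 (10.2% and 0.594%). The 8 are 11.0% of the members, close to the background. For Six4 the difference holds for the gene ends only, since within 1 kb of a listed start it had H3K9ac in Sham, Lam and DCA. Pitx3, a midbrain dopamine gene, had 3, 3, 1 and 5 H3K9ac peaks, and Six5 3, 4, 2 and 6.

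For H3K27ac, member peaks numbered 47, 60, 53 and 44. Six5 had 1, 9, 7 and 3 of them and Tbx2 12, 18, 15 and 14. Six5 was thus high in Lam as well as in SNA. An end peak only in SNA was found in Six5 and Tbx3 and only in Sham in Barx2, Nkx2-6 and Six4 (13.5% and 2.83% of all genes). Within 1 kb of a listed start Six4 had H3K27ac in all 4 lists, so its absence in SNA holds for the gene ends only. Lam against the same Sham list had 4 and 3 (13.0% and 2.38%), and Barx2, Nkx2-6, Six5 and Tbx3 were among them again. DCA against Lam had 0 only in DCA and 2 only in Lam, Nkx1-2 and Tbx3 (2.39% and 10.6%). The log2 ratio of the member share was -0.439 (-0.99 to 0.111) for SNA over Sham, -0.446 (-1.01 to 0.12) for Lam over Sham and 0.265 (-0.311 to 0.842) for DCA over Lam, and each interval includes 0. For SNA over Sham it did not with 50 kb on either side (-0.438, -0.764 to -0.111) or with peaks near other genes left out (-0.687, -1.37 to -0.00553).

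Members had H3K27me3 and acetylation at the ends of the same gene about as often as all genes did. An end peak of each kind was counted in 8, 4, 7 and 3 members, against 11.4%, 6.42%, 13.8% and 3.48% of all genes, which is close to the member shares of 11.0%, 5.48%, 9.59% and 4.11%. The 8 of Sham include Barx2, Nkx2-6, Pitx3, Six4, Tbx2, Tbx21 and Tbx4, and the 3 of DCA were Gbx1, Tbx21 and Tbx4. These counts depend on the window and the peak threshold. H3K27me3 without acetylation was the commonest state, with 56, 61, 63 and 48 members against 17.2%, 16.5%, 19.6% and 8.80%. Acetylation without H3K27me3 held for 3, 5, 2 and 10 members against 42.4%, 49.0%, 41.8% and 56.7%. In DCA those 10 include Nkx1-2, Nkx6-3, Pitx3, Six4, Six5, Tbx2, Tbx3, Tbx6 and Tbx10. Neither was found at an end in 6, 3, 1 and 12 members, against 29.0%, 28.0%, 24.9% and 31.1%. Tbx22 was among them in every list, with no acetylation and no ATAC peak in its window and 0, 1, 0 and 2 H3K27me3 peaks. In SNA and DCA an H3K27me3 peak lay within 1 kb of a listed start of Tbx22, though not of its ends. Tbx6 was the only member with no H3K27me3 peak in its window in any list.

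The genes were accessible all the same. An ATAC peak lay at an end of 59, 68, 66 and 64 members, against 69.4%, 71.2%, 69.5% and 70.7% of all genes, and in all 4 lists of 52 members (61.9%). In at least 1 list it was 72 members, all but Tbx22 (78.2%). In the window it was 70 in all 4 lists (79.3%). H3K27me3 and ATAC at an end in all 4 lists of each, with no acetylation there in any list, were found in 30 members (41.1%), against 1.57% of all genes. Of the ATAC peaks in member windows, 76.4%, 65.1%, 81.5% and 25.8% overlapped an H3K27me3 peak of the same surgery, against 15.8%, 13.1%, 23.1% and 5.37% of the whole lists. The overlap with H3K9ac was 6.16%, 4.90%, 5.57% and 9.95%, against 14.1%, 16.9%, 13.0% and 20.6%. H3K27me3 peaks covered 61.8%, 58.5%, 66.2% and 31.4% of the merged member windows, so a high overlap with that mark is partly given by its cover. In DCA the overlap with H3K27me3 was below this cover. The strongest ATAC end peak of a member had a median percentile by p of 79.4, 85.8, 77.6 and 83.2 in its list, and that of all genes with one lay at 94.6, 95.2, 94.9 and 95.

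ATAC differences between surgeries were small. The log2 ratios of the member share were 0.086 (-0.104 to 0.275) for SNA over Sham, -0.0782 (-0.267 to 0.111) for DCA over Lam and 0.103 (-0.0908 to 0.296) for Lam over Sham. An end peak only in SNA was found in 12 members and only in Sham in 3 (5.51% and 3.75% of all genes). Lam against the same Sham list had 10 and 3 (4.76% and 4.67%), so such a difference was also present without an axotomy. DCA against Lam had 4 and 6 (4.96% and 3.82%). Pax2 had 13, 20, 19 and 20 ATAC peaks, Pax5 32, 38, 34 and 37, and Nkx2-6, a pharynx and heart gene, 7, 3, 1 and 4. Pax3 had 10, 4, 9 and 6, fewer in SNA than in Sham and fewer in DCA than in Lam. Pitx1, a hindlimb gene, had 4, 4, 10 and 6, Lhx8 6, 6, 4 and 9 and Nkx2-2 6, 10, 3 and 7.

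Hox genes and keratin genes give a scale for these values. The 39 Hox genes had H3K27me3 at an end in 26, 19, 33 and 12 cases and H3K9ac in 17, 24, 22 and 26, and their median H3K27me3 cover was 33.7%, 6.64%, 39.6% and 4.12%. The 49 keratin genes, structural genes of skin and hair, had H3K27me3 at an end in 39, 41, 46 and 15 cases, H3K9ac in 6, 3, 4 and 7, and median cover of 31.3%, 27.6%, 49.4% and 7.93%. Their listed promoters had a median of 5 CpG dinucleotides, and 51.4% of them held TATAAA. The medians of cover were higher in the homeobox and T-box genes than in either list in all 4 surgeries. No test of these differences was made.

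Lists of other genes place the members in the tissue. Of 12 sensory neuron markers, 2, Tubb3 and Ntrk2, were acetylated at an end in every surgery and 7 in at least 1 list, while Isl1, Avil, Ntrk3 and Scn10a were among those in none. Of 8 markers of satellite glia and Schwann cells, 6 were acetylated in every surgery and 8 in at least 1 list. The counts were 0 and 2 of 6 for macrophage markers and 0 and 0 of 5 for spinal cord markers, and 3 of 5 fibroblast and vessel markers were acetylated in every surgery. Over all genes, 37.0% had no acetylation peak at an end in any list and 28.6% had one in all 8. No test between these short lists was made. Of 7 further homeobox genes of sensory ganglia, 6 were found in the gene table (Isl1, Isl2, Pou4f1, Pou4f2, Pou4f3 and Tlx3), and all 6 had H3K27me3 at an end in all 4 lists. Their median cover was 80.0%, 83.2%, 87.3% and 41.7%, and 2 of the 6, Pou4f1 and Tlx3, were acetylated at an end in at least 1 list. Of 15 core Polycomb genes, which write and read the mark, 13 were acetylated at an end in every surgery, as were the H3K27me3 demethylase genes Kdm6a and Kdm6b.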

How the data were processed

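The authors deposited 1 peak list for each of 4 assays and 4 surgeries, with all replicates pooled per the labels. Of 60 samples, 24 are ChIP samples, 24 inputs and 12 ATAC samples. The fold column is a linear ratio of enrichment that the authors deposited, and the −log10 p and −log10 q columns are the authors' own; here they serve for descriptions, ranks and filters inside 1 list. Build mm10 is per the submitters' processing notes, and the aligner and caller are not given in the sources used here. Read depth is unknown.

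ATAC intervals repeated for several summits were collapsed to the strongest. Peaks were set against 21883 RefSeq protein-coding genes of GRCm38.p6, with an overlap of at least 1 bp. Covered share is the percent of a window inside peaks. Intervals on log2 ratios of member shares and on shares (exact Clopper-Pearson, 95%) cover counting error only. The interval counts were tested on simulated data. Python 3.11.15, pandas 2.3.3 and scipy 1.17.1 were used.

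The members and lists were chosen with earlier results of these data known. Named were members with an acetylation mark at an end in all 4 lists, the 10 highest H3K27me3 folds in Sham, for each assay and comparison the 2 largest gains and 2 largest losses in peak number, Six4, Pax3, Tbx2 and Tbx3, and members with no peak in any list (none); other genes named, and the printed promoters, were chosen after their values were seen. Replicates being pooled, none could be left out in turn. Wider and narrower windows, peak midpoints, equal list sizes and a q of at most 0.05 were tried as alternatives. A few genes that this rule names, and their results, are not reported here.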

Additional observations from a re-analysis of the deposited data

Results flagged for a closer look

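The member share of the H3K27ac list had opposite signs for the sciatic and the spinal injury, at -0.439 (log2, SNA over Sham) and 0.265 (DCA over Lam). The difference was not tested. Both counting intervals include 0, but that of SNA over Sham did not with 50 kb on either side (-0.438, -0.764 to -0.111) or with peaks near other genes left out (-0.687, -1.37 to -0.00553). The member share of the ATAC list also had opposite signs, at 0.086 after the nerve injury and -0.0782 after the spinal injury, again untested and with intervals that include 0.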

How the results depend on the processing

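No paired analysis was possible because each deposited list pools the replicates of its condition, and for the same reason no replicate could be left out. With 50 kb on either side and 5 kb at gene ends, members with a peak in all 4 lists numbered 24 for H3K27ac (7 in the windows of the report) and 27 for H3K9ac (11), the H3K27me3 log2 ratio of DCA over Lam was 0.61, and members with acetylation and H3K27me3 at an end numbered 16, 10, 11 and 12 (Sham, SNA, Lam, DCA). With the gene body alone and 500 bp at gene ends the same values were 4, 4, 0.825, and 5, 1, 4 and 0. Counting peaks by midpoint gave 4 genes with both marks in Sham, 1 in SNA and 0 in DCA. Lists cut to equal size gave 5 in Sham, 2 in SNA and 3 in Lam. With a q of at most 0.05, 0 members had H3K27me3 in all 4 lists and 0 had both marks in any of Sham, SNA, Lam and DCA, and no H3K27me3 log2 ratio could be given. Of 2 alternatives chosen after seeing the data, covered length in place of peak number gave 0.0113 for H3K27me3 in DCA over Lam and reversed SNA over Sham to -0.0376, and leaving out peaks near other genes gave 4 members with H3K27ac in all 4 lists. The H3K27me3 calls are limited most, since nearly all member peaks miss a q of 0.05.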
